A study of Mus musculus with 4 samples.

Results

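The Sox genes encode transcription factors that bind DNA through an HMG box. The 9 genes described here are those linked to neural progenitors: the SoxB genes Sox1, Sox2, Sox3 and Sox21, the SoxC genes Sox4 and Sox11, the SoxD genes Sox5 and Sox6, and Sox9 of the SoxE group. Their regions were taken by gene name: every accessible region of the merged count table that the authors' annotation gives to 1 of these genes, with promoter and distal regions each kept by themselves. This gave 42 of 29121 regions, of which 9 were promoter regions, meaning that they overlap 1 kb on each side of the start site given in the table, and 33 were distal. All 9 genes had a region and all 42 regions were deep enough to be tested. SoxB held 8 regions, SoxC 7, SoxD 26 and SoxE 1.

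Accessibility was measured by ATAC-seq, in which a transposase cuts open chromatin, on hippocampal neurospheres, floating clusters of cultured neural progenitor cells. The mice were newborn C57BL/6 animals, and their cells grew for 7 days in medium holding 20 ng/ml of both FGF-2 and EGF. Every culture was hGFAPCre+, a Cre transgene driven by the human GFAP promoter, which is active in radial glia. The 2 control cultures were Fgf13+/y and the 2 Fgf13cko cultures Fgf13 flox/y, so the comparison asks how accessibility differs where Fgf13, an intracellular FGF family protein, is conditionally deleted. Cells of 1 mouse were split over 2 wells. Whether a group's 2 cultures are 2 mice is not in the labels, so p-values here reflect only how these samples vary, and that variation may be technical.

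SoxB1 factors (Sox1, Sox2 and Sox3) keep neural progenitors undifferentiated, while Sox21, of the SoxB2 branch, acts against them as a repressor. SoxC factors switch on neuronal genes as progenitors leave the cycle. SoxD factors lack an activation or repression domain of their own and work beside other Sox proteins, and Sox9 is needed for neural stem cells and for the start of gliogenesis.

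Depth over nuclear regions ran from 2.55 to 3.25 M tags. Mitochondrial regions took 67.7% and 68.4% of region tags in control libraries and 38.5% and 31.5% in Fgf13cko libraries, and the part of this gap in the Sox values was not tested. Promoter regions were found for 7 of 8 neural progenitor markers and for 0 of 5 microglial markers. They were also found for 4 of 6 oligodendrocyte, 3 of 5 neuronal, 3 of 5 astrocyte and 3 of 4 forebrain and hippocampal markers. For endothelial and mural markers it was 1 of 4, and for meningeal fibroblast markers 1 of 4. None of the 4 regions of Fgf13 itself passed the threshold, and the labels do not give the floxed part, so these regions do not check the genotype. Library Fgf13cko 1 stood apart in narrow regions. Of 5671 regions under 600 bases with tags in all 4 libraries, its count lay below both controls in 85.4%, against 31.3% for Fgf13cko 2.

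The promoter windows below show the Sox6 start that rose beside 3 others, a further Sox6 start, Sox2 and Sox4, for comparison of their base composition and Sox motifs. Each is the 250 bases before a RefSeq start site on GRCm38.p6, 5′ to 3′ on the gene's strand. Capitals mark ACAATG or ACAAAG, short forms of the Sox binding motif, on either strand (CATTGT or CTTTGT as printed). The first 2 belong to Sox6, at chr7:115824711-115824960, minus strand, inside the Sox6 promoter region that rose, and at chr7:116038745-116038994, minus strand, near the 5′ end of the gene. This second window overlaps no accessible region counted here, so it is not the sequence of the 5′ Sox6 promoter region described below. The third is Sox2 at chr3:34649745-34649994, plus strand, and the fourth is Sox4 at chr13:28953700-28953949, minus strand.
Sox6 internal start: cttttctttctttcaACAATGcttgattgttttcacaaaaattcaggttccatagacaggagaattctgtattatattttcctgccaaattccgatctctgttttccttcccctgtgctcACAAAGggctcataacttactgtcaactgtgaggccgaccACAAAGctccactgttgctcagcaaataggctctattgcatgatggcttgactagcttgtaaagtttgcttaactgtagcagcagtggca
Sox6 near 5′ end: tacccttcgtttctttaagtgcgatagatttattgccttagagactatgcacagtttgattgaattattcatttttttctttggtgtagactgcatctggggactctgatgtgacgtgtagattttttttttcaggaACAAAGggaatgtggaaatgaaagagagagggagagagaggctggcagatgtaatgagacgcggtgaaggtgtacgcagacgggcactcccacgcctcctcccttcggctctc
Sox2: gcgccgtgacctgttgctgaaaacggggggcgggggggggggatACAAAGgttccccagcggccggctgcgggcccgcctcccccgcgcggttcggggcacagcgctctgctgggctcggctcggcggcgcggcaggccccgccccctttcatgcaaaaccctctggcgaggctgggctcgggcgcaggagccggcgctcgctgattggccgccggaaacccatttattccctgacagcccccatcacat
Sox4: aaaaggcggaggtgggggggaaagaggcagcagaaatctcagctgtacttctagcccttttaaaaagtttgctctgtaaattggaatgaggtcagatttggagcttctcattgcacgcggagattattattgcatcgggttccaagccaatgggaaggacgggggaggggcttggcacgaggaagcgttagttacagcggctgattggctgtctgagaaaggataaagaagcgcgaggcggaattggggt
The internal Sox6 window held 3 of the searched motifs, the one near the 5′ end 1, Sox2 1 and Sox4 0. A further Sox6 window, at 115995087 to 115995336, held 4 and overlapped no region of the table. Of 32851 RefSeq promoter windows of this length, 25.2% held at least 1. The internal Sox6 window was 41.6% G and C with an observed over expected CpG ratio of 0.188. The CpG ratio was 0.833 for Sox2, the window richest in G and C of the 4, and that of Sox4 was 0.801 at 50.8% G and C. The medians over all windows were 52.4% and 0.373. The window near the 5′ end of Sox6 held 45.2% G and C with a CpG ratio of 0.735. A match is a run of letters and was not tested as a binding site. Windows were found for 7 of the 9 genes.

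Sox6, of the SoxD group, was the 1 gene with a promoter region past the threshold. Of the 9 promoter regions 1 rose, an internal start of Sox6, and 0 fell by edgeR's quasi-likelihood test with Benjamini-Hochberg adjustment over all regions, and 3 had an unadjusted p under 0.05, as did 14.6% of all promoter regions. Over all 11712 tested promoter regions 1.42% rose and 0.76% fell. The 6 promoter regions of SoxB, SoxC and Sox9 all had a lower fitted mean in Fgf13cko, with a median log2 fold change of -0.33, and none of them passed. Lower was also the more common direction elsewhere: of all tested promoter regions, 6766 had a lower fitted mean and 4946 a higher one. These directions hold relative to the other regions: scaling by library size alone, mitochondrial tags included, shifts the median of all regions to 0.97 and gives all 6 a higher value in Fgf13cko. The 3 SoxD promoter regions had a higher one, with a median of 0.50. The median over all promoter regions was -0.06. Fewer cells of a type with open chromatin and less open chromatin per cell cannot be told apart in these bulk samples.

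**Figure D1:**
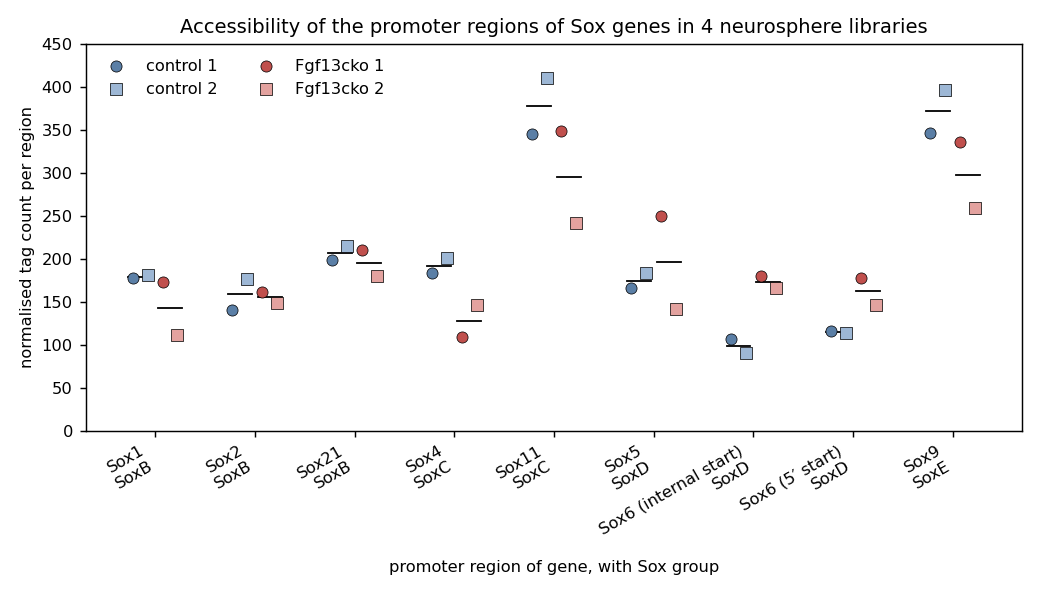
Normalised tag count of each promoter region (y axis, linear from 0) in the 4 libraries, with genes on the x axis; bars are group means (n = 2). At the internal Sox6 start both Fgf13cko libraries (180 and 165) lie above both controls (106 and 90.2), and at Sox4 both lie below on this scale, though not when scaled by library size alone.

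Among the SoxB genes, the Sox2 promoter region on chromosome 3 (34648908 to 34650222, mm10) held normalised counts of 141 and 177 in controls 1 and 2 and 161 and 149 in Fgf13cko 1 and 2. The Fgf13cko values lay between the controls. Its log2 fold change was -0.04 with a 95% interval from -0.49 to 0.41 (adjusted p = 0.931). The Sox21 promoter region on chromosome 14 (118235954 to 118237481) gave 198 and 215 against 210 and 180, which overlap, with a log2 fold change of -0.08 (95% interval -0.50 to 0.33). Its region also covers the first exon of a non-coding transcript. At the Sox1 promoter on chromosome 8 (12394943 to 12396073) the counts were 177 and 181 across the controls and 173 and 111 across Fgf13cko. Both Fgf13cko values were below the controls, Fgf13cko 1 by little and Fgf13cko 2 by much. For Sox1 the log2 fold change of -0.34 (SE 0.23, adjusted p = 0.439) became -0.71 without Fgf13cko 1, when the region passed (adjusted p = 0.00228), and -0.06 without Fgf13cko 2 (adjusted p = 0.834). Passing is more common in fits without an Fgf13cko library: 24.3% of all regions passed without Fgf13cko 1 and 35.0% without Fgf13cko 2, against 7.84% with all 4 libraries, 1.68% without control 1 and 0.778% without control 2.

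No promoter region bore the name of Sox3. The region over its start site on chromosome X (60893220 to 60894703) carried the name of another gene, Gm38438, in the table, although its annotation cites the Sox3 start. Its counts were 109 and 114 across the controls and 87.7 and 69.0 across Fgf13cko. The groups did not overlap, Fgf13cko being lower, but the region did not pass (log2 fold change -0.51, SE 0.21, adjusted p = 0.196).

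Both SoxC promoters had lower fitted means in Fgf13cko, except under scaling by library size alone (0.39 for Sox4 and 0.59 for Sox11). The Sox4 promoter region on chromosome 13 (28953294 to 28954078) gave 183 and 201 across the controls and 108 and 146 across Fgf13cko. Both Fgf13cko libraries were below both controls, with a log2 fold change of -0.59 (SE 0.21) that did not pass (adjusted p = 0.128 by edgeR). Without Fgf13cko 2 it was -0.83 and passed (adjusted p = 0.000236), and without Fgf13cko 1 it was -0.42 and did not (adjusted p = 0.0742). The Sox11 promoter region on chromosome 12 (27341189 to 27343578), which overlaps 1.53 of the 8.45 kb of its only exon, gave 345 and 410 against 348 and 242. Fgf13cko 1 lay just above control 1 and Fgf13cko 2 below both. Sox11 had a log2 fold change of -0.36 (SE 0.23, adjusted p = 0.401) and passed without Fgf13cko 1 (-0.67, adjusted p = 0.00014), but without Fgf13cko 2 it was -0.13 (adjusted p = 0.531). In the authors' peak lists the fold enrichment at the Sox11 start was 7.93 and 7.88 across the controls and 5.23 and 4.36 across Fgf13cko. The Sox11 peak of Fgf13cko 2 was 2302 bases wide, against 840 to 950 in the other libraries. At the Sox4 start the enrichment was 5.48 and 6.11 against 5.08 and 4.90. The groups overlapped at the 5′ start of Sox6 (5.23 and 5.65 against 6.51 and 5.50) and at Sox9 (4.69 and 5.71 against 4.87 and 3.99).

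Sox9 had 1 region, its promoter on chromosome 11 (112781480 to 112783603), reaching into the 5′ UTR. It gave 347 and 396 across the controls and 336 and 259 across Fgf13cko. Both Fgf13cko values were lower, without passing (log2 fold change -0.32, SE 0.21, adjusted p = 0.401), and without Fgf13cko 1 the value was -0.55 and passed (adjusted p = 0.00219). Without Fgf13cko 2 it was -0.16 (adjusted p = 0.428). The long non-coding neighbour of Sox9, 2610035D17Rik, had distal sums of 753 and 827 against 682 and 500, a log2 fold change of -0.42 that did not pass (adjusted p = 0.168).

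In the SoxD group, the Sox6 promoter region that rose lies on chromosome 7 (115824682 to 115825845), at a start site 216 kb into the gene. It held 106 and 90.2 normalised counts in the controls and 180 and 165 in Fgf13cko. Both Fgf13cko libraries were well above both controls, with a log2 fold change of 0.81 (SE 0.19, adjusted p = 0.0380). The region at the 5′ end of Sox6 (116039315 to 116040695) gave 116 and 113 against 178 and 146. It was also higher in both Fgf13cko libraries but did not pass (log2 fold change 0.50, SE 0.19, adjusted p = 0.168), and passed without Fgf13cko 2 (0.62, adjusted p = 0.00624) but not without Fgf13cko 1 (0.33, adjusted p = 0.243). The Sox5 promoter region on chromosome 6 (144209086 to 144210859), itself at a start 572 kb into the gene, gave 166 and 183 against 250 and 142. Fgf13cko 1 was highest and Fgf13cko 2 lowest of the 4 libraries (log2 fold change 0.17, SE 0.26). It passed without Fgf13cko 2 (0.51, adjusted p = 0.00964) and was -0.32 without Fgf13cko 1. The region at the 5′ end of Sox5 (144780813 to 144782187) carried the name Sox5os3 in the table. It gave 72.9 and 67.2 against 99.2 and 91.2, with Fgf13cko higher and no overlap, and did not pass (log2 fold change 0.44, SE 0.21, adjusted p = 0.263). A region inside Sox6 (116031784 to 116034784) likewise carried another name, Sox6os, so it enters neither Sox6 sum below. Its counts were 284 and 299 against 355 and 276, which overlap (log2 fold change 0.11, SE 0.20, edgeR adjusted p = 0.794). In both groups its mean was higher than that of any region named Sox6.

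Summed over both promoter regions, Sox6 held 221 and 199 normalised counts in the controls and 341 and 341 in Fgf13cko (log2 fold change 0.70, SE 0.14, adjusted p = 0.0271 by edgeR). It was the 1 promoter sum of the 8 members tested to pass, where 2.14% of all genes rose and 0.601% fell. With 1 control left out, the log2 fold change of the internal Sox6 region stayed between 0.70 and 0.94. That of the sum was 0.78 without control 1 and 0.63 without control 2. Neither passed in those fits, where calls were rare over all regions and absent over all promoter sums. Their loss there is not particular to Sox6. DESeq2 gave 0.79 for the region without passing (adjusted p = 0.115) and 0.70 for the sum, just past the threshold (adjusted p = 0.0499).

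Mean levels per kb of region set the genes in a different order in the 2 groups. In the controls the Sox4 promoter held the most, at 233.5 and 256 normalised counts per kb, above Sox9 at 163 and 187. Sox1, Sox11, Sox21 and Sox2 followed at means of 159, 158, 135 and 121. Sox1 and Sox11 overlapped, as did Sox21 and Sox2, while both Sox11 libraries (144 and 172) were above both Sox21 libraries (130 and 141). Sox5 stood at 98.2, and the internal and 5′ regions of Sox6 at 84.5 and 83.1, which overlap. In Fgf13cko the means ran only from 111 at Sox5 to 162 at Sox4, and the internal Sox6 region was the next highest at 148, within the range of the 2 Sox4 libraries (138 and 186.5). Its own libraries (155 and 142) also overlapped those of Sox9 (158 and 122), Sox1 (153 and 98.5) and Sox11 (146 and 101).

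Ratios of tags within a library need no scaling between libraries. The Sox6 promoter tags over the Sox4 promoter tags were 1.22 and 1.02 across the controls and 3.28 and 2.12 across Fgf13cko. Sox6 over Sox9 was 0.644 and 0.515 against 1.07 and 1.20, and SoxD over SoxC was 0.734 and 0.633 against 1.33 and 1.16. In these 3 ratios both Fgf13cko libraries were above both controls. SoxC over SoxB was 1.02 and 1.06 across the controls and 0.842 and 0.885 across Fgf13cko, below both controls. These ratios are descriptions with 2 libraries a group and no test.

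The distal regions carried 3 calls, all SoxD and all upward: 2 of 10 at Sox6 and 1 of 13 at Sox5. None of the 5 distal regions of SoxB and the 5 of SoxC passed in edgeR, DESeq2 or limma-voom, and 1 of each had an unadjusted p under 0.05 in edgeR, as did 28.5% of all distal regions. As a share of the 33 distal regions this was 9.09%, near the 9.48% of all 17089 distal regions that rose, while 2.24% fell. Members' distal regions had a median log2 fold change of 0.36, against 0.09 over all distal regions.

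**Figure D2:**
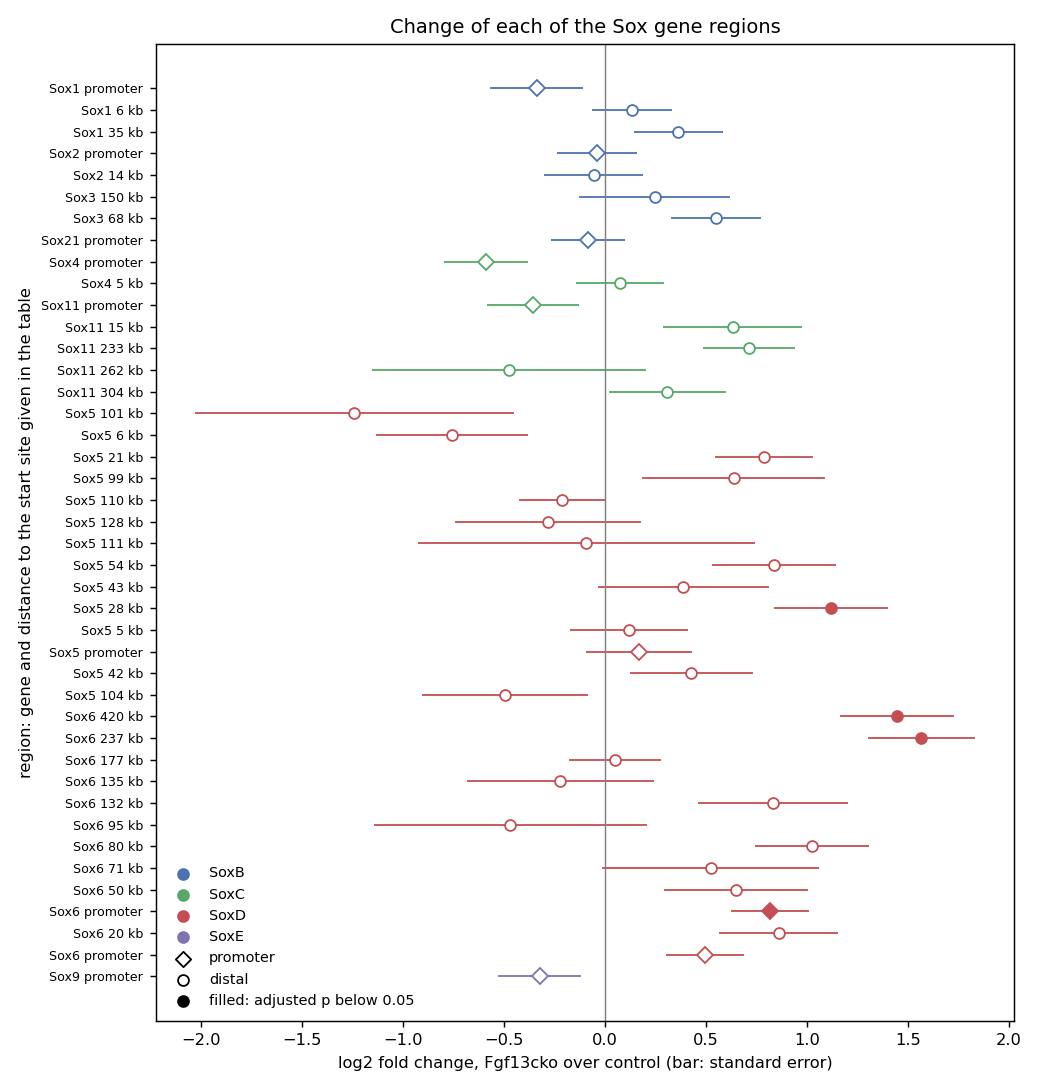
Log2 fold change (x axis, Fgf13cko over control) of all 42 regions with its standard error, by gene and distance to the start site given in the table; diamonds are promoters, circles distal regions, and filled symbols passed. The 4 filled symbols are 1 Sox6 promoter, 2 Sox6 distal regions and 1 Sox5 distal region, all to the right of 0.

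The Sox6 region with the largest fold change lies in intron 9 of the gene on chromosome 7 (115564103 to 115565235), 476 kb from its 5′ end. It held 37.4 and 47.6 normalised counts in the controls and 150 and 104 in Fgf13cko. Both Fgf13cko libraries were more than double each control (log2 fold change 1.57, SE 0.27, edgeR adjusted p = 0.0112). The other Sox6 region that rose (115381096 to 115382181) is intergenic, 88.7 kb beyond the 3′ end of the gene. It gave 33.5 and 27.2 against 73.8 and 91.2. Again both Fgf13cko libraries were above double each control (log2 fold change 1.44, SE 0.28, adjusted p = 0.0181). With 1 control left out, these Sox6 values stayed between 1.30 and 1.76 but no longer passed, with adjusted p from 0.0553 to 0.206.

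The other 8 distal regions of Sox6 did not pass. The nearest to doing so was in intron 4 (115721434 to 115722337), at 65.0 and 42.5 across the controls and 127 and 91.2 across Fgf13cko (log2 fold change 1.02, SE 0.28, adjusted p = 0.0636). This region was chosen for its closeness to the threshold, after its values were seen. Over the 10 regions the median was 0.74, with values from -0.47 to 1.57, and in 6 of 10 both Fgf13cko libraries were above both controls, as in 34.7% of all distal regions and 46.0% of those of 600 bases or wider. The least different was a region of intron 7 (115623939 to 115625688), with 74.9 and 66.4 against 71.5 and 74.3, which overlap (log2 fold change 0.05).

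Summed over its distal regions Sox6 held 383 and 389 normalised counts in the controls and 690 and 541 in Fgf13cko. Both Fgf13cko sums lay far above the close pair of controls, with a log2 fold change of 0.67 (SE 0.17, adjusted p = 0.0330). Sox6 was the 1 distal sum of 7 members to pass, against 7.62% of all genes that rose and 4.22% that fell. The call ended without control 1 (0.63, adjusted p = 0.295) and without control 2 (0.66, adjusted p = 0.252). It also ended when only regions within 100 kb of the start site were summed (0.65, adjusted p = 0.0842).

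The surroundings of Sox6 held further regions that rose. Within 5 Mb on each side, 20 of 112 tested distal regions (17.9%) rose with a median log2 fold change of 0.32, and on chromosome 7 as a whole 15.1% of 1012 distal regions rose with a median of 0.27. The regions of Sox6 itself are left out of both counts. Around Sox5 on chromosome 6 the same window had 8.86% rising and a median of -0.08. Whether the Sox6 values differ from their surroundings was not tested.

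Sox5 had the most regions and the most mixed ones. Its 1 distal region that rose lies in intron 1 (144181034 to 144182142, chromosome 6), 601 kb from the 5′ end. It gave 34.5 and 40.8 normalised counts in the controls and 95.7 and 69.0 in Fgf13cko, both above both controls (log2 fold change 1.12, SE 0.28, adjusted p = 0.0467 by edgeR). The call ended without control 1 (1.01, adjusted p = 0.352) or control 2 (1.25, adjusted p = 0.241), with scaling on nuclear regions alone (adjusted p = 0.0528) and in DESeq2 (adjusted p = 0.147).

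The strongest distal region of Sox5, in intron 3 (144056426 to 144057571), held 378 and 379 across the controls and 383 and 272 across Fgf13cko. Only Fgf13cko 2 was below the controls, and the log2 fold change was -0.21 (SE 0.22, adjusted p = 0.616), or -0.51 without Fgf13cko 1, when it passed (adjusted p = 0.00498), and 0.0085 without Fgf13cko 2. The Sox5 region with the largest change in size, in intron 10 (143845693 to 143846131), gave 28.6 and 35.7 against 2.31 and 24.4. Its value of -1.24 (SE 0.79, adjusted p = 0.403) came mostly from Fgf13cko 1: without that library it was -0.43, and without Fgf13cko 2 it was -3.75 and passed (adjusted p = 5.19e-06). Over the 13 distal regions of Sox5 the median was 0.12, and their sum was 850 and 888 against 867 and 811, which overlap (log2 fold change -0.05, 95% interval -0.40 to 0.29).

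**Figure D3:**
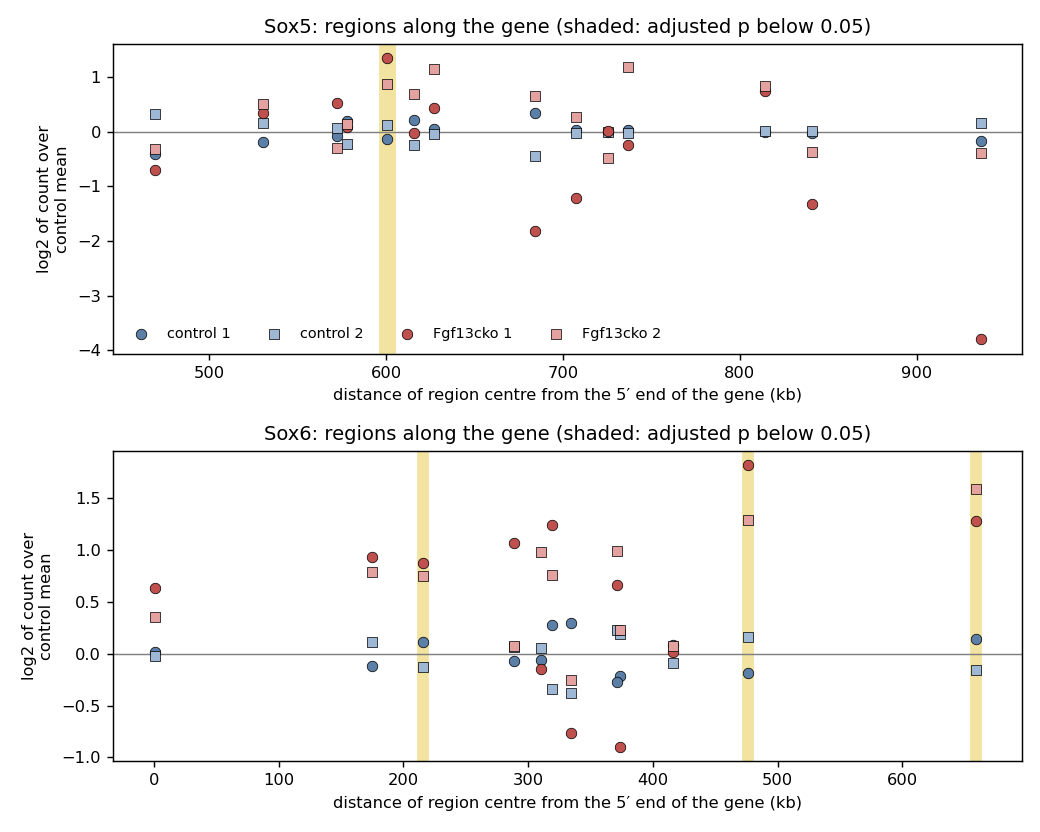
Log2 of each library's normalised count over the control mean (y axis) for the regions of Sox5 and Sox6, by distance of the region centre from the gene's 5′ end in kb (x axis); shaded regions passed. At Sox6 both Fgf13cko libraries are above both controls in 8 of 12 regions, and at Sox5 in 4 of 14, where 19.5% of all promoter and 34.7% of all distal regions lie so.

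Region width went with the split inside Sox5. Its distal regions had a median width of 588 bases, against 995 at Sox6. Of the 7 Sox5 distal regions under 600 bases, Fgf13cko 1 was below both controls in 5 and above both in 0, and the median log2 fold change was -0.09. Of the 6 at 600 bases or wider, Fgf13cko 1 was above both controls in 5, and the median was 0.61. At Sox6 the 8 wider distal regions had a median of 0.84 and the 2 narrow ones 0.03. Over all distal regions of 600 bases or more, 13.2% rose with a median of 0.24, and the members' share was 13.0% of 23 with a median of 0.55. The part of region width in the Sox5 values was not tested.

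**Figure D4:**
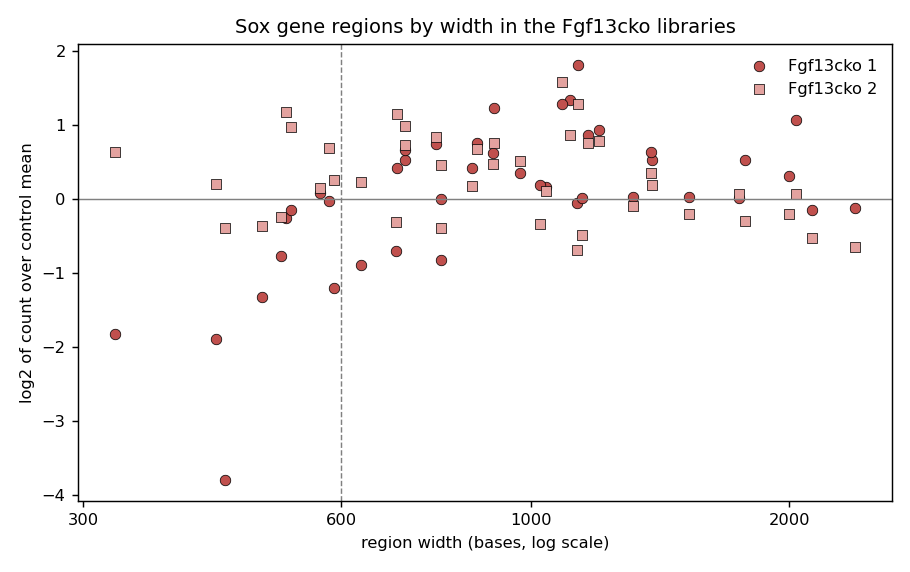
Log2 of the normalised count over the control mean (y axis) for the 42 Sox regions in both Fgf13cko libraries, by region width in bases (x axis, log scale; the dashed line is at 600). Under 600 bases Fgf13cko 1 lies below both controls in 8 of 10 regions and Fgf13cko 2 in 2 of 10.

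The distal regions of SoxB and SoxC lay outside the genes, all of which are short. At Sox3 the region on chromosome X at 60825115 to 60826016 gave 61.1 and 73.2 across the controls and 104 and 93.4 across Fgf13cko, with both Fgf13cko libraries higher (log2 fold change 0.55, SE 0.22, adjusted p = 0.182). Fgf13 lies on the same chromosome, within 5 Mb of Sox3. The 7 distal regions of other genes in that window had a median of 0.40. They include distal regions of Fgf13 itself, at log2 fold changes of 0.83 and -0.53. At Sox11 an intergenic region 233 kb away (27575615 to 27576479) gave 51.2 and 57.9 against 92.3 and 87.0, with no overlap (log2 fold change 0.71, SE 0.23, adjusted p = 0.101). Without Fgf13cko 2 both passed, at 0.61 for Sox3 (adjusted p = 0.0387) and 0.75 for Sox11 (adjusted p = 0.0173), in a fit where 35.0% of all regions passed. Neither passed when control 1, control 2 or Fgf13cko 1 was left out, with adjusted p from 0.195 to 0.817 for Sox3 and from 0.0585 to 0.629 for Sox11.

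The distal region of Sox1 with the largest fold change (12429747 to 12431130), in an exon of the non-coding transcript Sox1ot, gave 90.7 and 117 across the controls and 150 and 119 across Fgf13cko. Fgf13cko 2 was barely above control 2 (log2 fold change 0.36, adjusted p = 0.380), and without it the region passed (0.51, adjusted p = 0.0398), while without Fgf13cko 1 it did not (0.16, adjusted p = 0.648). The 1 distal region of Sox2 (34663863 to 34664885) gave 84.7 and 81.7 against 94.6 and 65.8, and that of Sox4 (28957931 to 28959929) 231 and 201 against 268 and 187. In both, Fgf13cko 1 was the highest and Fgf13cko 2 the lowest of the 4 libraries. Their log2 fold changes were -0.06 (95% interval -0.61 to 0.50) and 0.07 (-0.42 to 0.57).

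Counting regions with no overlap between the groups, 2 promoter regions of the members lay above and 3 below, where 19.5% of all promoter regions lay above and 29.3% below. Of the 33 distal regions 16 lay above (48.5%) and 2 below (6.06%), against 34.7% and 22.4% of all distal regions. All 16 were 600 bases or wider, and both of those below were narrow Sox5 regions. They were 69.6% of the members' 23 distal regions of that width, and among all distal regions of that width 46.0% lay above.

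The authors' peak lists, called per library, include openings that the count table leaves out. All 9 start sites carried a peak in all 4 libraries. Within 20 kb of the genes there were 50 and 63 peaks in the controls and 85 and 66 in Fgf13cko, a ratio of the group means of 1.34, where all peaks gave 1.40. Merged over libraries these made 103 places, 41 of them open in all 4 (39.8%, against 36.4% of all places). In both Fgf13cko libraries and no control there were 11 (10.7%, against 12.3%), of which 8 were at Sox5, 2 at Sox6 and 1 at Sox4. In both controls and no Fgf13cko library there were 2 (1.94%, against 1.77%), at Sox5 and Sox9. All of these shares were near those of the whole lists.

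Of 10 other Sox genes, 3 had a tested promoter sum and 7 a tested distal sum. Of these, 1 rose, the distal sum of Sox14, a SoxB2 gene, where 7.62% of the distal sums of all genes rose. It gave 95.9 and 93.7 across the controls and 175 and 177 across Fgf13cko (log2 fold change 0.89, SE 0.20, adjusted p = 0.0192 by edgeR). Sox8, a SoxE gene like Sox9, gave -0.30 at its promoter and 0.15 distally. The SoxC gene Sox12 gave 0.20 and -0.23, and the SoxD gene Sox13 gave 0.25 distally, none past the threshold. Sox10, a SoxE gene of the oligodendrocyte lineage, had no region.

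Of 16 partners and targets of Sox factors, 0 of 12 tested distal sums passed, where 7.62% of all genes rose and 4.22% fell. Of 11 tested promoter sums 1 rose and 0 fell, where 2.14% of all genes rose and 0.601% fell. The 1 was Nes, an intermediate filament gene with a Sox-bound enhancer, at 78.2 and 71.3 across the controls and 125 and 132 across Fgf13cko (log2 fold change 0.79, SE 0.19, adjusted p = 0.0489). At an unadjusted p under 0.05, 3 of the 12 distal sums passed, where 28.4% of all genes did. The list medians were -0.01 at promoters and 0.01 distally, against -0.01 and -0.01 over all genes. Sox2ot, Sox1ot and 2610035D17Rik, the non-coding neighbours, had 0 of 2 promoter sums and 0 of 3 distal sums past the threshold. The distal sum of Sox1ot was the nearest, at 206 and 232 against 369 and 292 (log2 fold change 0.59, adjusted p = 0.0649).

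Markers of other cell types differed beside the SoxD values. The distal sums of 5 oligodendrocyte markers added up to 1736 to 1822 in the controls and 2198 to 2768 in Fgf13cko. Of the 5, 1 rose, Olig1, where 7.62% of the distal sums of all genes rose. Olig1 and Olig2 held most of that sum, while the distal log2 fold change was -0.83 for Pdgfra and -0.03 for Mbp, neither past the threshold. Of that list Mbp and Mog had no promoter region. The promoters of 3 neuronal markers added up to 209 to 227 in the controls and 344 to 369 in Fgf13cko. Of the 3, 1 rose, Syt1, where 2.14% of the promoter sums of all genes rose. Dcx and Rbfox3 had no promoter region. None of the 3 neuronal distal sums passed, and that of Rbfox3 had a log2 fold change of -0.68. The part of either cell type in the Sox6 values was not tested.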

How the data were processed

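The members and gene lists were chosen with earlier results of these data known. Per the file headers, the deposited table holds estimated counts, raw HOMER tags in each of the merged broad peaks, on mm10. They were rounded to whole numbers, for sums after summing. In the peak lists, the fold enrichment (a ratio) and the -log10 q of each peak are the authors' own values and serve here only for description and filtering. Named in the submitters' processing notes are HOMER, MACS2, Picard, Bowtie2 and DESeq2. Versions, read shifting and duplicate treatment were not given in the sources used here. A region is in the table only if all 4 libraries had a peak there.

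Regions, promoter sums per gene and distal sums per gene (at any distance) were each fitted over the whole table with edgeR 4.0.16 in R 4.3.3 (TMM scaling, filterByExpr, robust quasi-likelihood, two-sided, Benjamini-Hochberg, threshold 0.05). All 4 libraries entered, with no covariate. Mitochondrial regions entered the region fit only. The 2 mitochondrial regions took 31.5% to 68.4% of region tags, so scaling by library size alone is an alternative that changes direction. Normalised counts are tags divided by the relative effective library size, from 0.867 to 1.18. The spread between replicates, as edgeR's common coefficient, was 0.191 over regions, 0.127 over promoter sums and 0.17 over distal sums. The fits were tested on simulated data. Named regions are every promoter region, every distal region past the threshold, and each gene's distal region with the highest count and with the largest fold change. From the lists of other Sox genes, partners and neighbours, those past the threshold were named, and Sox8, Sox10, Sox12 and Sox13 always. Alternatives were other scalings and filters, DESeq2 1.42.0, limma-voom (limma 3.58.1), the replicate block and leaving out each library. Adjusted p-values that DESeq2 gave as missing were left missing. Where a library is left out, the lone library of its group is assumed to vary like the other group. Sequences are from RefSeq tables of GRCm38.p6.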

Additional observations from a re-analysis of the deposited data

How the results depend on the processing

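The members' promoter regions had 1 call and their distal regions 3, and their promoter and distal sums 1 each. These counts kept within 1.5 times of that under relative log expression scaling, nuclear scaling (run for regions only), an abundance offset, both filters, limma-voom and a wider promoter window. Scaling by library size alone, which counts mitochondrial tags, moved the median of all regions to 0.97 and called 8 promoter and 24 distal regions, all upward. It turned the promoter values of Sox21 (0.88), Sox11 (0.59), Sox4 (0.39), Sox2 (0.92), Sox9 (0.63) and Sox1 (0.61), and the distal values of Sox2 (0.89) and Sox5 at 144056426 (0.74). DESeq2 called 0 promoter regions, with 2 at an unadjusted p under 0.05, and edgeR 1, with 3. Distal sums gave 0 calls within 100 kb and 0 within 20 kb, with fewer regions summed; the Sox5 sum turned to 0.38 within 100 kb and that of Sox4 to 0.00155 within 20 kb. With an abundance offset the Sox4 distal region turned to -0.0032.

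Leaving out each library gave 0 to 4 promoter regions called, 0 to 14 distal regions, 0 to 4 promoter sums and 0 to 2 distal sums. Over all features 0.778% to 35.0% of regions, 0.0% to 24.8% of promoter sums and 2.82% to 45.4% of distal sums passed in these fits. All 4 counts were 0 without control 1 and without control 2. Over these settings values crossed 0 for the promoters of Sox2 (-0.19 to 0.14), Sox21 (-0.22 to 0.014) and Sox5 (-0.32 to 0.51), the distal regions of Sox2 (-0.36 to 0.18), Sox4 (-0.23 to 0.31) and Sox5 at 144056426 (-0.51 to 0.0085), and the distal sums of Sox1 (-0.088 to 0.36), Sox2 (-0.57 to 0.18) and Sox4 (-0.44 to 0.31). The cause was not tested.

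The replicate block called 1 promoter region, 4 distal regions, 1 promoter sum and 1 distal sum. Deviations of same-numbered libraries correlated at -0.24, so the numbers were not taken as pairs. A crossed replicate block, chosen after seeing the data, called 1, 4, 1 and 1. The peak ratio of 1.34 was 1.37 with the stricter q. Median depth was 57 to 72 tags per nuclear region, which limits how small a fold change can pass.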
